A study of Mus musculus with 2 samples.

Results

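Serpins are a superfamily of proteins that mostly inhibit serine proteases. RNA of the family was described here in cultured mouse Nestin+ mesenchymal stromal cells of the heart and of the bone marrow. The family was taken as every gene whose symbol begins with Serpin and carries no pseudogene suffix, which gave 63 genes of 49492 measured symbols, sorted by the clade letter that follows in the symbol. The heart cells were isolated from 7-day-old Nestin-GFP C57BL/6 mice and grown with EGF at 20 ng/ml, bFGF at 20 ng/ml and cardiotrophin-1 at 4 ng/ml. The bone marrow cells came from mice of the same kind and were grown in another medium, so that tissue of origin and culture medium cannot be told apart. Both were harvested at passage 10, and 1 RNA-seq library was made from each. How many animals or clones stand behind a culture is not given in the sources used here. With 1 library per tissue there was no replicate check, and every value below describes these 2 libraries, not the tissues in general.

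An inhibitory serpin presents an exposed stretch, the reactive centre loop, as bait to a protease. Cleavage of the loop lets it insert into the body of the serpin through a flexible hinge, and the protease stays bound and is distorted. Some members have lost this activity and serve as hormone carriers, storage proteins or chaperones. In stromal cells the family is known mainly for control of the plasminogen and thrombin systems at the cell surface, and for Serpinh1 (Hsp47), which attends collagen folding.

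Of the 63 genes, 20 reached 1 RPKM (reads scaled to the length of the gene model and to the size of the library) in at least 1 library, 18 of them in heart cells and 12 in bone marrow cells. These 20 include all 14 that reached 5 RPKM. A further 26 were detected below 1 RPKM in both libraries, and 17 were listed at 0 in both. Serpin RNA summed to 1724 RPKM in heart cells and to 1207 RPKM in bone marrow cells, 1.43 times as much in heart. In heart cells, Serpinh1 made up 41.0% of that sum, and Serpinh1, Serpine2 and Serpina3n together made up 80.2%. In bone marrow cells, Serpinh1 made up 48.8%, and Serpinh1, Serpinf1 and Serpine2 together made up 78.9%. The 11 Serpina3 genes of chromosome 12 made up 22.3% of the sum in heart cells and 0.118% in bone marrow cells.

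A gene was called higher in a library when log2((heart + 1)/(bone marrow + 1)) on RPKM, the log2 ratio in all that follows, reached 1 or -1 and its larger RPKM value was 5 or more. Of the 14 serpin genes that could pass, 5 were higher in heart (35.7%), where 7.56% of all 7659 such symbols were higher in heart. They were Serpina3n, Serpina3g, Serpine2, Serpinb2 and Serping1. Another 5 were higher in bone marrow (35.7%), against 9.51% of all such symbols, and among them were Serpinb6a, Serpinb1a, Serpinb9b and Serpinb6c. The other 4, Serpinh1, Serpinf1, Serpinb8 and Serpinb9, met neither call. The median log2 ratio of the 20 genes with 1 RPKM or more was 0.99 and its median size was 1.52, against -0.11 and 0.39 over all symbols under the same filter. The direction of that median rests on the filter, since it was -0.013 over the 14 genes that reached 5 RPKM and 0 over all 63. In bulk RNA of this kind, a smaller number of cells that express a gene and less of its RNA per cell cannot be told apart.

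**Figure D1:**
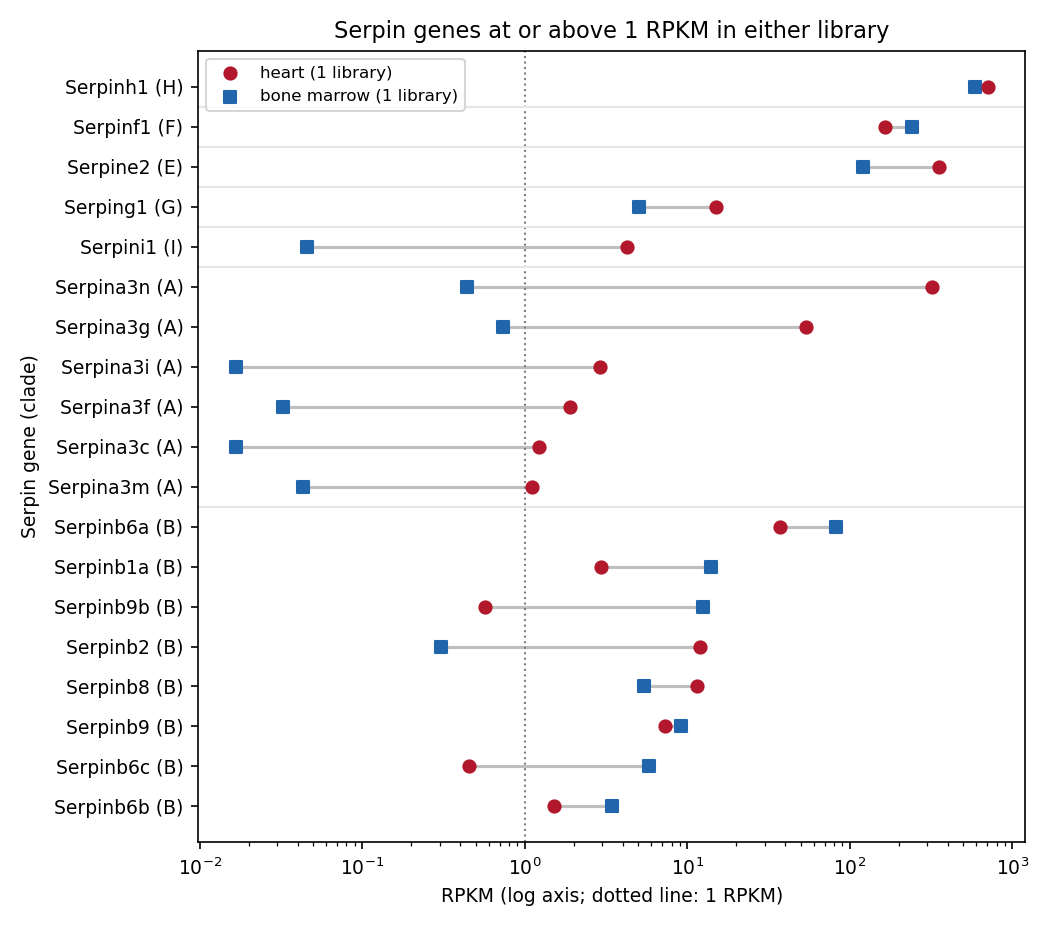
RPKM on a log axis for 19 of the 20 serpin genes at or above 1 RPKM in either library, with a circle for the heart library and a square for the bone marrow library, and the clade in brackets. All 6 Serpina3 genes lie to the right in heart cells, Serpina3n at 322 RPKM in heart and 0.440 RPKM in bone marrow, while the Serpinb6, Serpinb1a and Serpinb9 genes lie to the right in bone marrow cells.

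The bases that encode the reactive centre loop are shown for the members on which the values turn, since the loop decides which protease a serpin meets. Each run is read from a GENCODE M21 coding sequence on GRCm38, 5′ to 3′ on the coding strand, covers 36 codons and ends at the phenylalanine codon of a motif conserved near the C-terminus. Capitals mark the 7 hinge codons where a run of small residues typical of inhibitory serpins was found. The 6 Serpina3 genes at or above 1 RPKM, all on chromosome 12, come in order of their heart level, highest on top.
Serpina3n: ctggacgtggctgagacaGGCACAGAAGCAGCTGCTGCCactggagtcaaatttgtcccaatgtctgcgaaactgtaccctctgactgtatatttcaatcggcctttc
Serpina3g: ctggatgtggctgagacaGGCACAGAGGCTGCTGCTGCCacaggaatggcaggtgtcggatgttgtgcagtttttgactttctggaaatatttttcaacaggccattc
Serpina3i: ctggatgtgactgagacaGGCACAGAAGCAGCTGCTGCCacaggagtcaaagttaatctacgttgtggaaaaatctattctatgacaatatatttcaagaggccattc
Serpina3f: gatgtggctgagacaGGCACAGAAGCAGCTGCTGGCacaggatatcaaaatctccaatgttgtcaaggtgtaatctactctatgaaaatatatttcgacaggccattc
Serpina3c: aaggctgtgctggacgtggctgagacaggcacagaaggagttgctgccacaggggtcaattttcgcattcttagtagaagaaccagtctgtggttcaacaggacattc
Serpina3m: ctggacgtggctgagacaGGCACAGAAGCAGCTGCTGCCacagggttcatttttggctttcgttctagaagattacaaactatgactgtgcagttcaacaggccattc
In 5 of these genes the hinge was found, and 18 to 21 of its 21 bases were the same between any pair of the 5, over 10 pairs. The hinge was located by a residue pattern, and only matching genes were paired. Its likeness was thus partly set in advance and cannot be weighed against that of the loop. After the hinge, 52.2% to 73.9% of loop bases were identical over the same pairs (median 64.5%). The aligned coding sequences of the 6 genes were 82.3% to 91.4% identical over 15 pairs (median 85.0%). The longest reading frame found for Serpina3g had 248 codons, so its pairs were aligned over 643 to 744 bases, and the other pairs over 1215 to 1254 bases. The abundant heart transcripts Serpina3n and Serpina3g had 19 of 21 hinge bases in common and loops that were 56.5% identical after the hinge. Serpina3c holds no match to the hinge pattern, and whether it has a working hinge was not tested.

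The same stretch is shown for the 3 most abundant members outside clade A. Serpine2 is encoded on chromosome 1, Serpinf1 on chromosome 11 and Serpinh1 on chromosome 7.
Serpine2: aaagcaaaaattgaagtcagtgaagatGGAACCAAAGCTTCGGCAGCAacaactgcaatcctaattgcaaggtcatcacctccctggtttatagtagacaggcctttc
Serpinf1: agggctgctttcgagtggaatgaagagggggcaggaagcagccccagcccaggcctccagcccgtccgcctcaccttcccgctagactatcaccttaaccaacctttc
Serpinh1: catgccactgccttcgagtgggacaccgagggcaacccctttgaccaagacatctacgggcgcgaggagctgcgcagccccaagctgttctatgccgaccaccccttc
The hinge pattern was found in Serpine2 and in neither Serpinf1 nor Serpinh1, which are textbook examples of serpins without protease inhibition. Of 62 members with a protein-coding transcript, 43 held the pattern. Of the 20 at or above 1 RPKM it was found in 17, all but Serpinf1, Serpinh1 and Serpina3c. The pattern also missed the plasmin inhibitor Serpinf2, so a member without a match is not thereby shown to lack inhibition.

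Serpine2 encodes protease nexin 1, an inhibitor of thrombin, urokinase and plasmin that binds to the cell surface (chromosome 1, 79794197 to 79861180, minus strand, GRCm38). It had 353 RPKM in heart cells and 121 RPKM in bone marrow cells, 2.92 times as much in heart (log2 ratio 1.54). Whole reads could not be recovered for this gene, so it has no counting interval. It stood at rank 87 of all symbols in heart cells and at rank 328 in bone marrow cells. Serpine3 had 1 read in each library.

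Serpinb2 encodes plasminogen activator inhibitor 2, an intracellular and secreted inhibitor of urokinase best known from activated macrophages and keratinocytes (chromosome 1, 107511423 to 107535478, plus strand). It had 12.0 RPKM in heart cells (1823 reads) and 0.307 RPKM in bone marrow cells (39 reads), 38.9-fold higher in heart (95% interval 28.4 to 54.9, log2 ratio 3.31). Such intervals cover counting error in these 2 libraries only. Its gene model overlaps Serpinb10 on the same strand, which had 0.0353 RPKM in heart cells and was listed at 0 in bone marrow cells. Of 7 macrophage markers, 2 reached 1 RPKM, and all 7 summed to 4.72 RPKM in heart cells and 4.37 RPKM in bone marrow cells, and Ptprc, the pan-leukocyte marker, was listed at 0 in heart cells and had 0.00469 RPKM in bone marrow cells. The part of such cells in the Serpinb2 level was not tested.

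Serpini1 encodes neuroserpin, an inhibitor of tissue-type plasminogen activator best known from neurons (chromosome 3, 75557547 to 75643495, plus strand). It had 4.27 RPKM in heart cells (2017 reads) and 0.0457 RPKM in bone marrow cells (18 reads), 93.3-fold higher in heart (interval 58.9 to 158). Its heart level lies just under the 5 RPKM needed for a call. Serpinf2, which encodes the plasmin inhibitor alpha 2-antiplasmin of the liver, had 3 reads in heart cells and 14 reads in bone marrow cells.

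Serping1 encodes C1 inhibitor, which blocks the complement proteases C1r and C1s and plasma kallikrein (chromosome 2, 84765387 to 84775444, minus strand). It had 15.1 RPKM in heart cells (2273 reads) and 5.07 RPKM in bone marrow cells (636 reads), 2.97-fold higher in heart (interval 2.72 to 3.25, log2 ratio 1.41). With a pseudocount of 5 RPKM its log2 ratio was 0.996, just under the threshold. The plasma inhibitors of thrombin were low in both. Serpinc1 (antithrombin) had 0.0789 RPKM in heart cells and 0.115 RPKM in bone marrow cells, and Serpind1 (heparin cofactor II) had 6 reads in heart cells and 5 reads in bone marrow cells.

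Neither of the abundant non-inhibitory members met a call. Serpinh1, a collagen-binding chaperone of the endoplasmic reticulum (chromosome 7, 99345376 to 99353239, minus strand), had 707 RPKM in heart cells (112027 reads) and 589 RPKM in bone marrow cells (77711 reads). It was the most abundant serpin transcript in both, at rank 37 of all symbols in heart cells and rank 49 in bone marrow cells. The ratio was 1.20 (interval 1.19 to 1.21, log2 ratio 0.26). Serpinf1 encodes PEDF, a secreted protein known to restrain vessel growth (chromosome 11, 75409769 to 75422701, minus strand). It had 165 RPKM in heart cells (25258 reads) and 243 RPKM in bone marrow cells (30926 reads), a ratio of 0.680 (interval 0.669 to 0.691, log2 ratio -0.55). The depth separates both ratios from 1 as counts, and neither reached the 2-fold threshold.

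**Figure D2:**
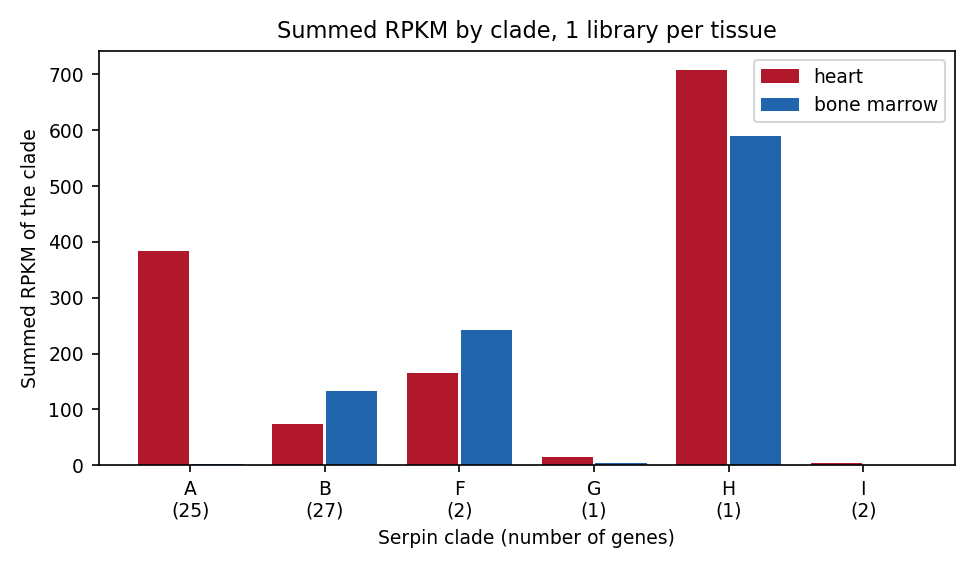
Summed RPKM of the serpin genes of each clade, with heart cells as the left bar and bone marrow cells as the right bar of each pair and the number of genes in brackets (clades C, D and E are not drawn). Clade A reaches 384 RPKM in heart cells and 2.08 RPKM in bone marrow cells, while clades B and F are taller in bone marrow cells.

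Clade A differed most between the libraries, at 384 RPKM in heart cells and 2.08 RPKM in bone marrow cells over 25 genes. Nearly all of it came from 11 Serpina3 genes that lie within 301.606 kb of chromosome 12 (104112724 to 104414329). In the mouse this cluster stands in the place of the single human gene SERPINA3, which encodes alpha 1-antichymotrypsin, an acute phase protein of the liver. The cluster summed to 384 RPKM in heart cells and to 1.43 RPKM in bone marrow cells, 51555 reads in heart and 156 reads in bone marrow. Of its 10 genes detected in either library, 9 had the higher value in heart, and of the 7 at or above 0.1 RPKM all 7 did. The exception, Serpina3k, had 0 reads in heart cells and 1 read in bone marrow cells. How many of all detected symbols had the higher value in heart was not computed here.

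Serpina3n is known in mice as a secreted inhibitor of granzyme B and of neutrophil proteases (104406729 to 104414329, plus strand). It had 322 RPKM in heart cells (43180 reads) and 0.440 RPKM in bone marrow cells (49 reads), 734-fold higher in heart (interval 555 to 992, log2 ratio 7.81). It ranked 94 of all symbols in heart cells and 11676 in bone marrow cells, and made up 84.0% of the Serpina3 sum in heart. Serpina3g is known in mouse lymphocytes as an intracellular inhibitor of cysteine cathepsins (104236245 to 104241939, plus strand). It had 53.5 RPKM in heart cells (7309 reads) and 0.730 RPKM in bone marrow cells (83 reads), 73.3-fold higher in heart (interval 59.1 to 92.1, log2 ratio 4.98). With Serpina3n it made up 98.0% of the Serpina3 sum in heart.

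The neighbours between and beside these genes were far lower and also had the higher value in heart. Serpina3i had 2.91 RPKM in heart cells (420 reads) and 0.0167 RPKM in bone marrow cells (2 reads), a ratio of 175 (interval 48.1 to 1448). Serpina3f had 1.91 RPKM in heart cells (284 reads) and 0.0323 RPKM in bone marrow cells (4 reads), a ratio of 59.1 (interval 22.8 to 218). Serpina3c had 1.23 RPKM in heart cells (176 reads) and 0.0167 RPKM in bone marrow cells (2 reads), a ratio of 73.3 (interval 20.0 to 610). The wide intervals come from the 2 to 4 reads in bone marrow cells. Serpina3m had 1.11 RPKM in heart cells (124 reads) and 0.0431 RPKM in bone marrow cells (4 reads), a ratio of 25.8 (interval 9.83 to 96.2), and its gene model spans Serpina3k. Serpina3h, annotated as a pseudogene in GENCODE M21, had 59 reads in heart cells and 11 in bone marrow cells. Serpina3a had 1 read and Serpina3j 2 reads in heart cells, with 0 reads of either in bone marrow cells, and Serpina3b was listed at 0 in both.

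These paralogues share sequence, so reads could be placed on the wrong member. Some of the distinct 50-base stretches of the GENCODE M21 transcripts of each gene also occur, on either strand, in a transcript of another gene. Their share was 6.90% in Serpina3n, 15.5% in Serpina3g, 15.9% in Serpina3i, 10.6% in Serpina3f, 4.25% in Serpina3c and 19.1% in Serpina3m. How the authors assigned reads that match several genes is not given in the sources used here, and the low Serpina3 levels beside Serpina3n are uncertain on that account. Reads moved between members would leave the summed reads of the cluster as they are.

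**Figure D3:**
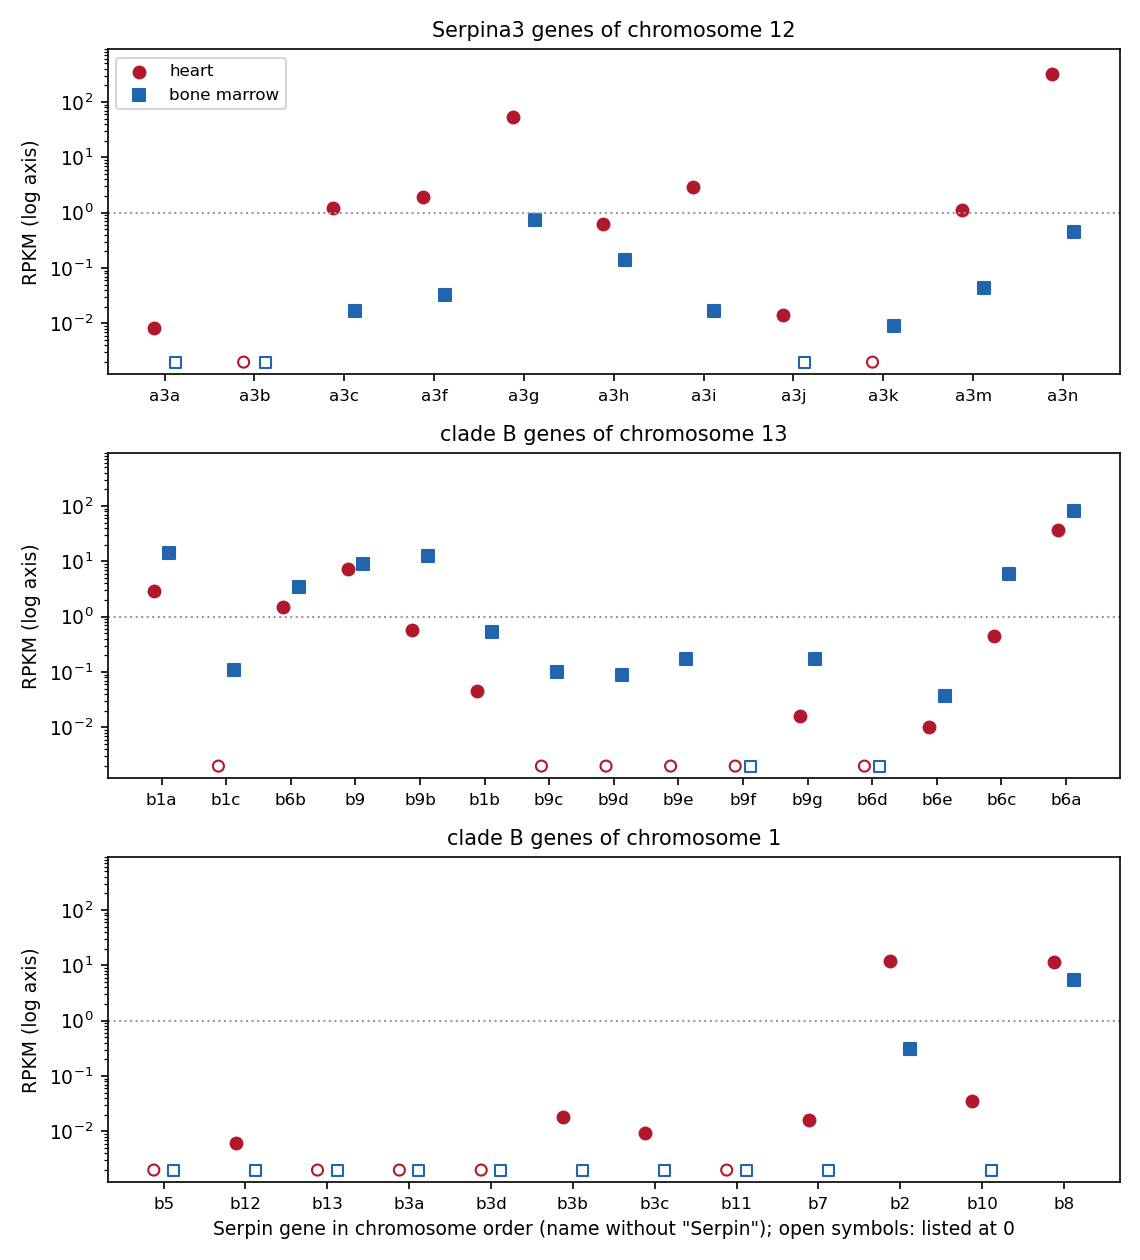
RPKM on a log axis for each gene of 3 serpin clusters in chromosome order, with circles for heart cells and squares for bone marrow cells, and open symbols at the base for genes listed at 0. Of the Serpina3 genes detected, 9 of 10 are higher in heart cells, all 13 detected clade B genes of chromosome 13 are lower in heart cells, and on chromosome 1 Serpinb2 and Serpinb8 stand above the rest.

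The 13 other clade A genes of chromosome 12 lie next to the Serpina3 genes, within 491.352 kb, and none reached 1 RPKM. They include the Serpina1 genes, which encode the plasma elastase inhibitor alpha 1-antitrypsin, and they summed to 0.164 RPKM in heart cells and 0.648 RPKM in bone marrow cells. Most of the bone marrow sum was Serpina1e, with 1 read in heart cells and 43 reads in bone marrow cells. Serpina9, known from germinal centre B cells, had 34 reads in heart cells and 16 reads in bone marrow cells. The remaining clade A gene, Serpina7 on chromosome X, encodes thyroxine-binding globulin and was listed at 0 in both.

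The promoters of 5 Serpina3 genes are shown because the genes share a direction but differ widely in level. Each line gives the 150 bases before the RefSeq start site on GRCm38.p6, 5′ to 3′ on the strand of the gene, and capitals mark a match to TTCNNNGAA, the pattern bound by STAT factors. The windows are chr12:104235997-104236146 (plus) for Serpina3g, chr12:104214394-104214543 (plus) for Serpina3f, chr12:104262972-104263121 (plus) for Serpina3i, chr12:104406558-104406707 (plus) for Serpina3n and chr12:104153873-104154022 (minus) for Serpina3c.
Serpina3g: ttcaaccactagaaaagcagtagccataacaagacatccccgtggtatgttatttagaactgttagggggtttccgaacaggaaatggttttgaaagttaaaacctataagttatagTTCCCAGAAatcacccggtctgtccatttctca
Serpina3f: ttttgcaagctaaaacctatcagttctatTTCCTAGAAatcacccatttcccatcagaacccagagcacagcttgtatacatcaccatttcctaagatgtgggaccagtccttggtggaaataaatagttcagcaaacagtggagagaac
Serpina3i: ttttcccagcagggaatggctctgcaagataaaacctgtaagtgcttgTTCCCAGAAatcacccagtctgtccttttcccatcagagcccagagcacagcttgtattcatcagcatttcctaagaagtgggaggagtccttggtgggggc
Serpina3n: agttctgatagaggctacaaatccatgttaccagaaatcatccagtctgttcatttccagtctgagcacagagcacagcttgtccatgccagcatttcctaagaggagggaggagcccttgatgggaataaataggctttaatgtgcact
Serpina3c: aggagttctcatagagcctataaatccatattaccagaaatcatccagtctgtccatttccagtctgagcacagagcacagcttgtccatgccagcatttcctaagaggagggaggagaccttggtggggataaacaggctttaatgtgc
The match begins at position -33 in Serpina3g, -121 in Serpina3f and -102 in Serpina3i, counted from the start site of the window shown. These letters are not in the windows of Serpina3n and Serpina3c. Over the tabulated promoter, from 250 bases before to 50 bases after the start, Serpina3n and Serpina3c were 93.5% identical, the closest of 10 pairs (range 69.6% to 93.5%, median 74.1%). In heart cells Serpina3n had 322 RPKM and Serpina3c 1.23 RPKM, so the pair most alike over that window was far apart in level.

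RefSeq promoters matched 53 of the 63 members, 16 of them at or above 1 RPKM. TTCNNNGAA, which reads the same on both strands, occurred in 8 of the 53 (15.1%), in 3 of 8 Serpina3 genes and in 9.55% of 27025 genes. The other 5 were Serpinb2, which was higher in heart, Serpinb6a, which was higher in bone marrow, and Serpina1f, Serpina11 and Serpinb9c, all below 1 RPKM. GAANNTTC, a core form of the heat shock element and also its own reverse complement, occurred in 6 of the 53 (11.3%) and in 9.04% of all genes. These letters are not in the Serpinh1 window. Other forms of the element were not searched, so whether Serpinh1 has a heat shock element was not tested. CAGAC, or GTCTG on the other strand, the short Smad-binding sequence, occurred in 29 of the 53 (54.7%) and in 53.2% of all genes. The 3 patterns were counted separately, with any overlap between them left in.

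Clade B holds the serpins that mostly stay inside the cell. Its summed RPKM was higher in bone marrow for the chromosome 13 genes and higher in heart for those of chromosome 1. On chromosome 1 this rests on Serpinb2 and Serpinb8, of which only Serpinb2 was called. Over 27 genes it summed to 73.5 RPKM in heart cells and 133.6 RPKM in bone marrow cells. The 15 genes of chromosome 13 (32842092 to 34002794, 1160.703 kb) summed to 49.95 RPKM in heart cells and 127.9 RPKM in bone marrow cells. All 13 of them detected in either library had the lower value in heart, including all 11 at or above 0.1 RPKM. Several of these rest on few reads. Serpinb9c had 0 reads in heart cells and 11 in bone marrow cells, and Serpinb6e had 1 read in heart cells and 3 in bone marrow cells. How many of all detected symbols had the lower value in heart was not computed here. Of the 5 genes of chromosome 13 that reached 5 RPKM, 4 were called higher in bone marrow, against 9.51% of all such symbols, and Serpinb9 was not.

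Serpinb6a is known as an inhibitor of cathepsin G and other trypsin-like and chymotrypsin-like proteases (chromosome 13, 33917918 to 34002794, minus strand). It had 37.2 RPKM in heart cells (13038 reads) and 81.8 RPKM in bone marrow cells (23888 reads), 2.20-fold lower in heart (interval 2.15 to 2.25, log2 ratio -1.12). Its gene model overlaps Nqo2, at 4.74 RPKM in heart cells and 5.69 RPKM in bone marrow cells, and Ripk1, at 11.6 RPKM in heart cells and 10.5 RPKM in bone marrow cells, both on the other strand. It shares 25.1% of its 50-base stretches with other genes, and whether the counting used strand is not given in the sources used here. After the heart values were multiplied by 1.11 to bring the median log2 ratio of all abundant symbols to 0, Serpinb6a no longer met the 2-fold rule.

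Serpinb1a is an inhibitor of neutrophil elastase and related proteases (32842092 to 32851185, minus strand). It had 2.93 RPKM in heart cells and 14.1 RPKM in bone marrow cells, 4.80-fold lower in heart (log2 ratio -1.94). Serpinb9b, one of several mouse paralogues of the granzyme B inhibitor Serpinb9 (33027416 to 33041884, plus strand), had 0.573 RPKM in heart cells and 12.5 RPKM in bone marrow cells, 21.8-fold lower in heart (log2 ratio -3.10). Serpinb6c (33879816 to 33905708, minus strand) had 0.454 RPKM in heart cells (41 reads) and 5.83 RPKM in bone marrow cells (438 reads). It was 12.8-fold lower in heart (interval 9.31 to 18.1, log2 ratio -2.23), and with a pseudocount of 5 RPKM its log2 ratio of -0.99 no longer met the rule. Serpinb6b (32965209 to 32979067, plus strand) had 1.51 RPKM in heart cells and 3.45 RPKM in bone marrow cells, 2.29-fold lower in heart and below the 5 RPKM needed for a call. No counting interval could be had for Serpinb1a, Serpinb9b and Serpinb6b. Whole reads were recovered in neither library for Serpinb1a and Serpinb6b, and only in bone marrow cells (2257 reads) for Serpinb9b.

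Serpinb9, which protects cells from granzyme B (33003250 to 33017957, plus strand), had the log2 ratio closest to 0 of the 6 genes of this cluster at or above 1 RPKM. It had 7.26 RPKM in heart cells (1646 reads) and 9.09 RPKM in bone marrow cells (1716 reads), a ratio of 0.798 (interval 0.746 to 0.855, log2 ratio -0.29). The paralogue Serpinb9b lay next to it at a log2 ratio of -3.10. Serpinb9b shares 5.38% of its 50-base stretches with other genes, most of them with Gm36099 (4.90%). Serpinb9 shares 0.378% of its stretches with Serpinb9b. The other 9 genes of the cluster were below 1 RPKM in both libraries, Serpinb9f and Serpinb6d at 0 in both.

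The 12 clade B genes of chromosome 1 (106861173 to 107610484, 749.312 kb) summed to 23.6 RPKM in heart cells and 5.74 RPKM in bone marrow cells, nearly all of it from Serpinb2 and Serpinb8. Serpinb8, an intracellular serpin whose human counterpart inhibits furin, had 11.5 RPKM in heart cells (3590 reads) and 5.43 RPKM in bone marrow cells (1406 reads). It was 2.13-fold higher in heart (interval 2.00 to 2.26), and its log2 ratio of 0.96 fell just short of the threshold of 1. Under each of the 4 other scalings tried, Serpinb8 passed it. Of the other 10 genes, mostly epithelial serpins such as Serpinb5 (maspin), 5 had 1 to 8 reads in heart cells and 0 reads in bone marrow cells, and 5 were at 0 in both. The gene with 8 reads was Serpinb10, whose model overlaps Serpinb2, and the others had 1 or 2 reads, too few for a comparison.

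The proteases, receptors and partners of these serpins were read from 10 lists. The reference for the calls in each list is the share over all symbols, 7.56% for heart and 9.51% for bone marrow. Of 10 genes of plasminogen activation (median log2 ratio 0.58, as for each list over its genes at or above 1 RPKM), 4 reached 5 RPKM, and Plat and Plau, the tissue-type and urokinase-type activators, were higher in heart. Plat had 31.4 RPKM in heart cells and 5.70 RPKM in bone marrow cells (log2 ratio 2.27), and Plau had 25.7 RPKM in heart cells and 12.2 RPKM in bone marrow cells (log2 ratio 1.02). Plaur, the urokinase receptor, had 4.82 RPKM in heart cells and 10.6 RPKM in bone marrow cells (log2 ratio -0.99), just short of a call. Plg, the plasminogen gene itself, had 0.00560 RPKM in heart cells and was listed at 0 in bone marrow cells, and Vtn, which encodes the adhesion protein vitronectin, was listed at 0 in both.

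Of 13 coagulation genes (median 1.24), 3 reached 5 RPKM and all 3 were higher in heart, against 7.56% of all symbols. The thrombin receptor F2r had 321 RPKM in heart cells and 26.1 RPKM in bone marrow cells (log2 ratio 3.57). Thrombomodulin (Thbd), which redirects thrombin, had 43.9 RPKM in heart cells and 0.338 RPKM in bone marrow cells (log2 ratio 5.07). Tissue factor (F3), which starts coagulation, had 95.6 RPKM in heart cells and 39.9 RPKM in bone marrow cells (log2 ratio 1.24). F2, the prothrombin gene, was listed at 0 in both.

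The immune-cell proteases that many serpins inhibit were near 0, since none of 13 genes reached 1 RPKM. They summed to 0.390 RPKM in heart cells and 0.0358 RPKM in bone marrow cells, with neutrophil elastase (Elane) at 0.101 RPKM in heart cells and 0 in bone marrow cells, and Ctsg at 0 in both. Of 17 stromal serine proteases (median 0.31), 7 reached 5 RPKM, 2 higher in heart, 1 higher in bone marrow and 4 neither. The shares over all symbols were 7.56% for heart and 9.51% for bone marrow, so with 7 genes the 1 higher in bone marrow is near that share. C1s1, a target of C1 inhibitor, had 40.2 RPKM in heart cells and 9.98 RPKM in bone marrow cells (log2 ratio 1.91), while C1ra had 24.2 RPKM in heart cells and 19.4 RPKM in bone marrow cells (log2 ratio 0.31). Fap, the fibroblast activation protease, had 6.76 RPKM in heart cells and 0.219 RPKM in bone marrow cells (log2 ratio 2.67). Prss23 had 11.8 RPKM in heart cells and 105 RPKM in bone marrow cells (log2 ratio -3.05).

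Of 13 cathepsin and caspase genes (median 0.87), 9 reached 5 RPKM, of which 4 were higher in heart and none in bone marrow (7.56% and 9.51% over all symbols). The lysosomal collagenase Ctsk had 451 RPKM in heart cells and 125 RPKM in bone marrow cells (log2 ratio 1.85), and Ctsl had 803 RPKM in heart cells and 398 RPKM in bone marrow cells (log2 ratio 1.01). Ctsc, which activates granzymes and neutrophil proteases, had 9.64 RPKM in heart cells and 0.0925 RPKM in bone marrow cells, and Ctsf had 21.1 RPKM in heart cells and 7.89 RPKM in bone marrow cells. Of 27 genes of protease inhibitors outside the family (median 2.39), 5 reached 5 RPKM and 4 were higher in heart, against 7.56% of all symbols. Pi15 had 86.6 RPKM in heart cells and 0.222 RPKM in bone marrow cells (log2 ratio 6.16), and cystatin C (Cst3), an inhibitor of cathepsins, had 867 RPKM in heart cells and 165 RPKM in bone marrow cells (log2 ratio 2.39). Both tissue factor pathway inhibitors were higher in heart, with Tfpi at 18.3 RPKM in heart cells and 0.397 RPKM in bone marrow cells and Tfpi2 at 18.4 RPKM in heart cells and 0.0212 RPKM in bone marrow cells.

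**Figure D4:**
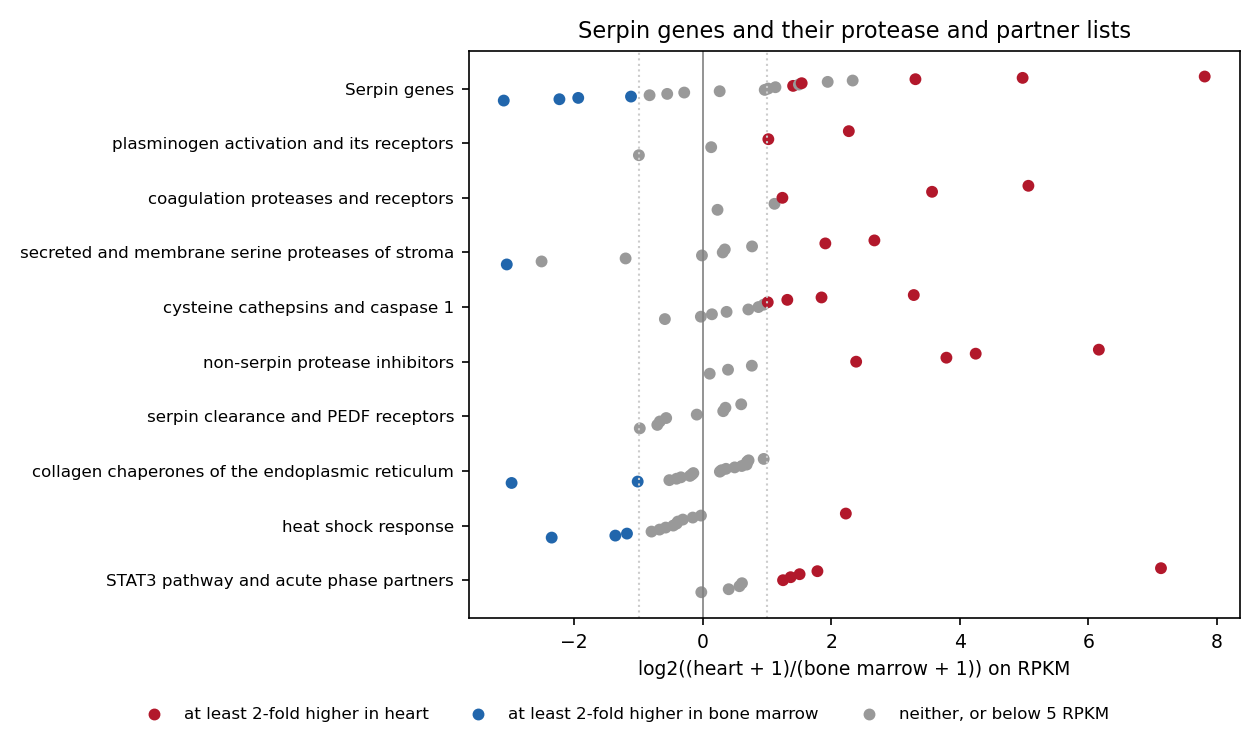
Log2 ratio of heart over bone marrow cells for each gene at or above 1 RPKM in either library, for 19 serpin genes in the top row and 9 of the 10 partner lists below (no immune-cell protease reached 1 RPKM). Serpin genes run from -3.10 (Serpinb9b) to 7.81 (Serpina3n), while none of the receptors that clear serpins passed the 2-fold rule.

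Of 10 genes for receptors that clear serpin complexes or bind PEDF (median -0.33), 7 reached 5 RPKM and none was called. Lrp1, which takes up complexes of Serpine2 with its proteases, had 205 RPKM in heart cells and 164 RPKM in bone marrow cells (log2 ratio 0.32). Pnpla2, a lipase reported to bind PEDF, had 6.73 RPKM in heart cells and 5.05 RPKM in bone marrow cells. The 18 genes of collagen folding in the endoplasmic reticulum, among which Serpinh1 acts, had a median log2 ratio of 0.28, close to the 0.26 of Serpinh1. Hspa5 had 263 RPKM in heart cells and 219 RPKM in bone marrow cells, and 16 of the 18 met neither call. The 2 higher in bone marrow, a share close to the 9.51% of all symbols, were prolyl hydroxylase subunits, with P4ha3 at 1.23 RPKM in heart cells and 16.6 RPKM in bone marrow cells and P4ha2 at 8.50 RPKM in heart cells and 18.2 RPKM in bone marrow cells.

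Of 13 genes of the heat shock response, to which Serpinh1 belongs, 1 was higher in heart, 3 were higher in bone marrow and 9 were neither, with a median log2 ratio of -0.46, where 7.56% of all symbols were called for heart and 9.51% for bone marrow. Hspb8 had 34.8 RPKM in heart cells and 6.66 RPKM in bone marrow cells. Hspb1 had 8.70 RPKM in heart cells and 48.5 RPKM in bone marrow cells, Hsp90aa1 had 90.8 RPKM in heart cells and 235 RPKM in bone marrow cells, and Hsph1 had 6.57 RPKM in heart cells and 16.2 RPKM in bone marrow cells. The transcription factor Hsf1 had 13.8 RPKM in heart cells and 15.5 RPKM in bone marrow cells.

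Of 10 genes of the STAT3 pathway and the acute phase, which are known to accompany Serpina3n in other mouse tissues (median 1.25), 8 reached 5 RPKM, and 5 were higher in heart and none in bone marrow. Over all symbols, 7.56% were called for heart and 9.51% for bone marrow. Saa3 had 179 RPKM in heart cells and 0.284 RPKM in bone marrow cells (log2 ratio 7.13), and the transcription factor Cebpd had 31.3 RPKM in heart cells and 8.38 RPKM in bone marrow cells (log2 ratio 1.78). The receptor subunit Osmr had 25.0 RPKM in heart cells and 8.17 RPKM in bone marrow cells, and Cebpb had 69.3 RPKM in heart cells and 26.3 RPKM in bone marrow cells. The heart medium held cardiotrophin-1, a ligand of the Il6st and Lifr receptor, and its part in these levels was not tested. Socs3, a feedback target of STAT3, had 21.2 RPKM in heart cells and 21.5 RPKM in bone marrow cells (log2 ratio -0.02). Stat3 and Il6st also met neither call, at log2 ratios of 0.61 and 0.40. Lcn2 had 0.740 RPKM in heart cells and 0.198 RPKM in bone marrow cells, too low to enter the median.

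The labelled cell type was read from marker genes. All 10 stromal markers reached 1 RPKM in at least 1 library and summed to 3488 RPKM in heart cells and 3869 RPKM in bone marrow cells, with Col1a1 at 1751 RPKM in heart cells and 1777 RPKM in bone marrow cells. Of the 9 that reached 5 RPKM, 4 were higher in heart, none was higher in bone marrow and 5 were neither. The shares over all symbols were 7.56% for heart and 9.51% for bone marrow. Endoglin (Eng) had 33.9 RPKM in heart cells and 0.576 RPKM in bone marrow cells, Thy1 had 16.7 RPKM in heart cells and 0.0603 RPKM in bone marrow cells, and Pdgfra had 27.6 RPKM in heart cells and 11.6 RPKM in bone marrow cells. Nt5e had 0.225 RPKM in heart cells and 1.59 RPKM in bone marrow cells. Nes itself had 8.74 RPKM in heart cells and 1.20 RPKM in bone marrow cells. Of 6 hepatocyte markers, Ttr, Apoa1 and Fgb were listed at 0 in both libraries and Alb had 0.00658 RPKM in heart cells and 0 in bone marrow cells. Apob was listed at 0 in heart cells and had 0.00399 RPKM in bone marrow cells. The sixth, Ahsg, had 29.5 RPKM in heart cells and 0.0503 RPKM in bone marrow cells and lay on the same side as Serpina3n. No marker of neutrophils and mast cells, cardiomyocytes or endothelial cells reached 1 RPKM. Summed levels were 0.207 RPKM in heart cells and 0.327 RPKM in bone marrow cells for 7 neutrophil and mast cell markers, and 0.404 RPKM in heart cells and 0.611 RPKM in bone marrow cells for 5 cardiomyocyte markers. They were 0.953 RPKM in heart cells and 0.245 RPKM in bone marrow cells for 5 endothelial markers, and 0.125 RPKM in heart cells and 2.16 RPKM in bone marrow cells for 6 epithelial markers, of which Krt14 reached 1 RPKM, in bone marrow cells. Depth recovered from the values was 64872683 reads in heart cells and 53999963 reads in bone marrow cells, and the median log2 ratio of 6049 symbols at or above 5 RPKM in both was -0.14.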

How the data were processed

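Total RNA (1 ug) of each culture was made into a standard Illumina library, per the labels' protocols. The authors deposited RPKM values for 49585 gene rows, per the file headers. Whether strand was used, and which aligner and counter, is not given in the sources used here. The submitters' processing notes name mm8 as the genome build. On GRCm38, 91.1% of rows match a GENCODE M21 model by coordinates, and those coordinates are printed. Of rows sharing a symbol the most abundant was kept, for 49492 symbols.

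RPKM times exon-union length gave whole reads within 0.02 reads for 12292 of 14255 rows (86.2%) above 0 in both libraries. These gave totals of 64872683 reads for heart and 53999963 for bone marrow, and exact conditional (Clopper-Pearson) 95% intervals of ratios. No molecular identifiers are recorded, so reads are not independent molecules and the intervals hold counting error alone. An exact 0 can be a failed estimate. No count model was fitted and no p-value computed, since each tissue has 1 library.

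The log2 ratio used a pseudocount of 1 RPKM, which understates the difference of low genes. A call needed a log2 ratio of at least 1 in size and at least 5 RPKM in the higher library. Members with 1 RPKM or more are named, except 1 that is counted but not reported here, lower ones only as cluster neighbours or as known plasma inhibitors. From partner lists, up to 4 called genes with the largest log2 ratio and preset partners are named. The uncalled Socs3, Stat3, Il6st and Lcn2 of the STAT3 list are named as well. Members, lists and rules were chosen with earlier results of these data known. In the lists, 1 cathepsin (Ctsl3) and 1 hepatocyte marker (Tf) had no matching row. The steps were tested on simulated data. Protein sequences were not used here, so loops were located in GENCODE M21 coding sequences. Biopython 1.88, matplotlib 3.10.9, scipy 1.17.1, pandas 2.3.3 and numpy 2.4.6 ran under Python 3.11.15. Other pseudocounts, floors, thresholds and scalings were tried.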

Additional observations from a re-analysis of the deposited data

How the results depend on the processing

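All 20 serpin genes with 1 RPKM or more kept the sign of their log2 ratio under the 4 scalings. Those multiplied the heart values by only 1.05 to 1.11, so they could turn only a ratio close to 1. Other pseudocounts change the size of a log2 ratio but cannot change its sign. Summing repeated rows left the values of these genes as they were. The counts of 5 and 5 genes followed the floor and the fold. The count higher in heart was 10 with a floor of 1 RPKM or with no floor, 3 with a floor of 20 RPKM and 3 at a 4-fold threshold. The count higher in bone marrow was 2 with a floor of 20 RPKM and 3 at 4-fold. Serpinb8 joined the heart genes (6) under all 4 scalings and with a pseudocount of 0.1 RPKM, and Serpinb6a left the bone marrow genes (4) under median and RPKM-sum scaling.

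The median log2 ratio of 0.99 was 1.31 with a pseudocount of 0.1 and 0.29 with 5 RPKM. It was 1.10, 1.05, 1.04 and 1.10 under median, upper quartile, trimmed mean and RPKM-sum scaling. Over members at or above 5 RPKM it was -0.013, and over all 63 members, 43 of them below 1 RPKM, it was 0. The log2 ratio of the summed RPKM, 0.51, was 0.66, 0.60, 0.59 and 0.66 under the same scalings and 0.72 without Serpinh1. It was not computed without the Serpina3 genes. Those made up 384 of the 1724 RPKM in heart cells and 1.43 of the 1207 RPKM in bone marrow cells. Chosen after seeing the data, a minimum of 0.1 RPKM left 2 of the 7 chromosome 1 genes higher in heart, and no scaling moved the cluster counts. No paired analysis was possible because each tissue has 1 library, and for the same reason no library could be left out.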
